A study of Homo sapiens with 45 samples.

Results

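The chromatin contacts of 9 neural basic helix-loop-helix (bHLH) genes were examined: NEUROG1, NEUROG2, NEUROG3, NEUROD1, NEUROD2, OLIG1, OLIG2, OLIG3 and ATOH1. A cis contact (both fragments on 1 chromosome) was taken for a gene when either of its fragments lay within 1000 bp of one of the gene's annotated ends. This gave 134 of the 152688 cis pairs in the table, spread over 7 of the 9 genes. OLIG1 and OLIG3 had no cis pair, although 1 captured fragment near each was listed in the table with pairs to other chromosomes.

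The contacts came from poised-enhancer capture Hi-C, in which DpnII-cut and re-joined DNA is enriched with RNA probes for fragments that hold poised enhancers. The cells were of HNES1, an established human embryonic stem cell line, and were collected on day 5 of the change from naive to primed pluripotency in N2B27 medium with XAV939. One group received UNC6852 at 2.5 µM, a PROTAC that degrades EED, a subunit of the histone methyltransferase complex PRC2, a second received UNC1999 at 1 µM, an inhibitor of its catalytic subunits EZH1 and EZH2, and the control group received the solvent DMSO. All were treated from 24 h before day 0, when the cells were still in naive medium. Each group had 15 libraries from 3 biological replicates in 2 batches, which the deposited table gives as 1 pooled column per group. The groups therefore have no replicate values here, no difference below has a test, and the spread between replicates is unknown. The doses differ, so values of the compounds are given side by side and their strengths are not compared. The cells are 1 line, contacts cannot be checked against RNA markers, and neither EED nor histone H3 lysine 27 methylation was measured in this table.

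Proteins of the bHLH class bind DNA as pairs, mostly with the widely made E proteins, at the E-box (CANNTG). The proneural members push progenitors toward neurons and are restrained by Notch signalling through HES and HEY repressors, while ID proteins trap their E-protein partners. In pluripotent cells such developmental genes are commonly held silent under PRC2, and their poised enhancers carry the same mark. NEUROG1 and NEUROG2 start neuron formation, NEUROG3 starts the endocrine lineage of the pancreas, NEUROD1 and NEUROD2 act later in neuron maturation, OLIG genes specify oligodendrocytes, motor neurons and dorsal interneurons, and ATOH1 drives cerebellar granule cells and the hair cells of the inner ear.

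The 300 bases around the annotated start (250 before and 50 after it) are shown from RefSeq, GRCh38.p14, for 4 genes, because these letters decide in which DpnII fragment a start lies and which of them hold an E-box. The table of such windows matched 7 of the 9 members, the exceptions being OLIG1 and OLIG2. Capitals mark CANNTG and the DpnII site GATC. Both read the same on either strand, and no match overlapped another.
NEUROG1, chr5:135535915-135536214, minus strand: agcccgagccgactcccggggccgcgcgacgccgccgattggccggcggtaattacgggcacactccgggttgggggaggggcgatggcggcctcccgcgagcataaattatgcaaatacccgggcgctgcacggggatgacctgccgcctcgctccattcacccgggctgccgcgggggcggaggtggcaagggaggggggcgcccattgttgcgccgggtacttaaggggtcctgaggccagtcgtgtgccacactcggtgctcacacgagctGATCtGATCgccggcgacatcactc
NEUROG2, chr4:112516131-112516430, minus strand: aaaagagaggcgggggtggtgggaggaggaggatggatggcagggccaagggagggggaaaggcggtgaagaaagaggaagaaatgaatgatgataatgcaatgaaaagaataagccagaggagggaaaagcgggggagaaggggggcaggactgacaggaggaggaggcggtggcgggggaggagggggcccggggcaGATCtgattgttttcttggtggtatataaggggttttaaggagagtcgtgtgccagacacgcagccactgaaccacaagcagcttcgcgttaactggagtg
NEUROD2, chr17:39607871-39608170, minus strand: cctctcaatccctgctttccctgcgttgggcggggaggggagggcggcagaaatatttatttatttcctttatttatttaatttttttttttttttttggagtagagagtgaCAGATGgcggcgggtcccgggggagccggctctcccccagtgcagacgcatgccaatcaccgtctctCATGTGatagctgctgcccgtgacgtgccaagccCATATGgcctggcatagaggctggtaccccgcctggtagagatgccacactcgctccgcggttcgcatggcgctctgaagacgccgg
ATOH1, chr4:93828503-93828802, plus strand: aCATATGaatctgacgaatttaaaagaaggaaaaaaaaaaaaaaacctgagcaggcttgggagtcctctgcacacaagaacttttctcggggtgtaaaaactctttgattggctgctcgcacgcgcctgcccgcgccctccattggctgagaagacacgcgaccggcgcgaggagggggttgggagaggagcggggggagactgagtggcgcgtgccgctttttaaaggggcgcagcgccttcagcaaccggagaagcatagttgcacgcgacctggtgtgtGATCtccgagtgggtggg
NEUROG1 has 2 GATC sites just after its start and no E-box in this window, and NEUROG2 has 1 GATC site before its start and no E-box. NEUROD2 holds 3 E-boxes and no GATC, whereas ATOH1 holds 1 E-box and 1 GATC after its start. Among the windows not printed, NEUROG3 had 1 E-box, and NEUROD1 and OLIG3 had neither motif. Of 35116 RefSeq windows of the same length, 68.7% hold CANNTG and 41.7% hold GATC, so either match is common.

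Each value is a CHiCAGO score, which grows as the reads joining 2 fragments exceed a background model, and a score of 5 or more is called a contact. Every pair in the table reached 5 in at least 1 profile, so a pair called only in DMSO is lower in both compounds by the way the table was made. Likewise a pair called in 1 compound only is higher there than in DMSO by the same route. Of the 134 member pairs, 56 were called in UNC6852, 54 in UNC1999 and 62 in DMSO. The shares were 41.8% (exact 95% interval 33.3 to 50.6) in UNC6852, 40.3% (31.9 to 49.1) in UNC1999 and 46.3% (37.6 to 55.1) in DMSO. Over all cis pairs the shares were 46.1% in UNC6852, 42.3% in UNC1999 and 42.4% in DMSO, and each lies inside the members' interval. Intervals cover counting error only, and pairs of 1 captured fragment are not independent.

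Most contacts were called in a single profile. This held for 106 member pairs, 31 in UNC6852 only, 36 in UNC1999 only and 39 in DMSO only, where the background over all cis pairs is 27.7% for UNC6852 only, 24.8% for UNC1999 only and 25.0% for DMSO only. Another 18 were called in 2 profiles and 10 in all 3, which is 7.46% of the members' pairs against a background of 8.33%. Of the 62 DMSO contacts, 20 were also called in UNC6852 (32.3%, exact interval 20.9 to 45.3) and 13 in UNC1999 (21.0%, 11.7 to 33.2), against 31.4% and 29.3% over all DMSO contacts. UNC6852 and UNC1999 shared 15 contacts, which is 26.8% of the UNC6852 contacts and 27.8% of the UNC1999 contacts, against 29.1% and 31.7% over all cis pairs.

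**Figure D1:**
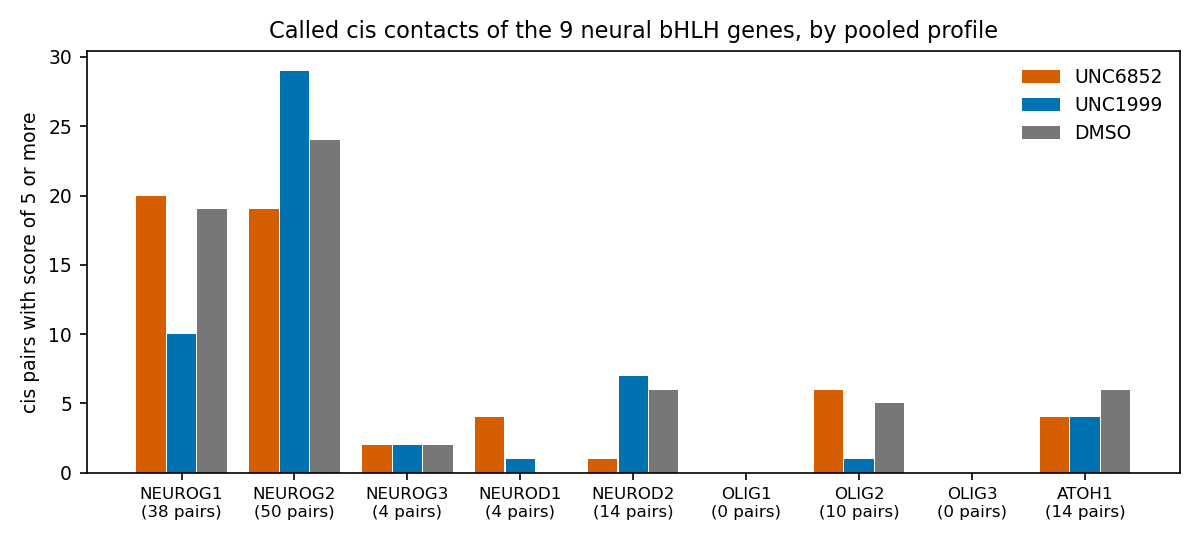
Number of cis contacts with a score of 5 or more (vertical axis) for each of the 9 genes, in UNC6852, UNC1999 and DMSO. NEUROG2 and NEUROG1 hold most contacts, NEUROG1 has 10 in UNC1999 beside 20 in UNC6852 and 19 in DMSO, and NEUROD1 has 4 in UNC6852, 1 in UNC1999 and 0 in DMSO.

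Contacts of 20 to 100 kb made up a larger share for these genes together than over the table, though not for each gene. No pair spanned less than 20 kb, and 24 of 134 (17.9%) spanned 20 to 100 kb, against 7.52% of all cis pairs. These 24 include 7 pairs of NEUROG1 on only 2 partners, each met from 3 or more of its fragments, and all 4 pairs of NEUROG3. NEUROD2 and ATOH1 had none below 309 and 218 kb. The share was not recounted by partner. A further 83 (61.9%) spanned 100 to 500 kb, against 64.5%. The 13 pairs of 0.5 to 2 Mb (9.70%, against 19.9%) and the 14 beyond 2 Mb (10.4%, against 7.38%) were without exception called in 1 profile, as were 86.6% and 93.5% of all cis pairs at those distances. The median span was 282 kb for the members and 314 kb for all cis pairs. The 101 partner fragments had a median length of 5191 bp, and 106 pairs joined a partner that was neither captured nor near an end of another protein-coding gene. Those 106 included every pair called in all 3 profiles. In 15 pairs an uncaptured partner lay at an end of another gene, and in 13 pairs the partner was a captured fragment. The gene's own fragment was not captured in every one of these 13.

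NEUROG2 (chr4:112513516-112516180) had 50 pairs, the most of the 9 genes, with 19 contacts in UNC6852, 29 in UNC1999 and 24 in DMSO. The shares of its pairs were 38% (exact 95% interval 24.7 to 52.8) in UNC6852, 58.0% (43.2 to 71.8) in UNC1999 and 48% (33.7 to 62.6) in DMSO. The intervals overlap, but all shares are of the same 50 pairs, so the overlap does not test a difference. Its mean asinh score, a log-like scale that keeps scores of 0, was 1.85 in UNC6852, 2.10 in UNC1999 and 1.93 in DMSO.

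The body of ALPK1 (chr4:112297369-112442621), a gene for an innate immune kinase that senses bacterial sugars, received 34 of the 50 pairs, over 18 partner fragments 93.2 to 219 kb away. Of these pairs 15 were called in UNC6852, 24 in UNC1999 and 17 in DMSO, and 7 were called in all 3 profiles. The 16 NEUROG2 pairs outside ALPK1 gave 4 contacts in UNC6852, 5 in UNC1999 and 7 in DMSO, and none was shared by all 3. The strongest joined the 562 bp fragment inside NEUROG2 (chr4:112513681-112514242) to chr4:112330787-112335844, 181 kb away. It scored 10.4 in UNC6852, 7.15 in UNC1999 and 16.8 in DMSO, so it was called in each profile and highest in DMSO. From the same fragment, chr4:112340521-112346067 at 171 kb scored 10.4 in UNC6852, 7.63 in UNC1999 and 10.5 in DMSO. The partner at chr4:112320123-112325344, 191 kb away, scored 7.79 in UNC6852, 8.61 in UNC1999 and 7.20 in DMSO. These last 2 contacts stayed above 5 under both compounds.

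Neighbouring fragments of NEUROG2 did not move together. The 3 captured fragments lie side by side. The 2233 bp one had 6 contacts in UNC6852, 12 in UNC1999 and 6 in DMSO. The 562 bp one had 8 in UNC6852, 8 in UNC1999 and 13 in DMSO, and the 716 bp one had 3 in UNC6852, 7 in UNC1999 and 3 in DMSO. Their mean asinh differences, UNC1999 minus DMSO, were 0.46, -0.37 and 0.54, and UNC6852 minus DMSO they were 0.14, -0.35 and -0.08. The middle fragment was thus lower in both compounds while the outer pair was higher in UNC1999. The partner chr4:112330787-112335844 shows this within 1 locus. From the 2233 bp fragment it scored 7.33 in UNC6852, 9.88 in UNC1999 and 4.62 in DMSO, and from the 716 bp fragment 3.83 in UNC6852, 7.69 in UNC1999 and 4.36 in DMSO. In both it was highest in UNC1999, where from the middle fragment it was highest in DMSO. By contrast the partner chr4:112356606-112361898 was highest in DMSO from each of the 3 fragments, at 4.09 to 6.41 in UNC6852, 5.47 to 6.41 in UNC1999 and 7.96 to 8.81 in DMSO.

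**Figure D2:**
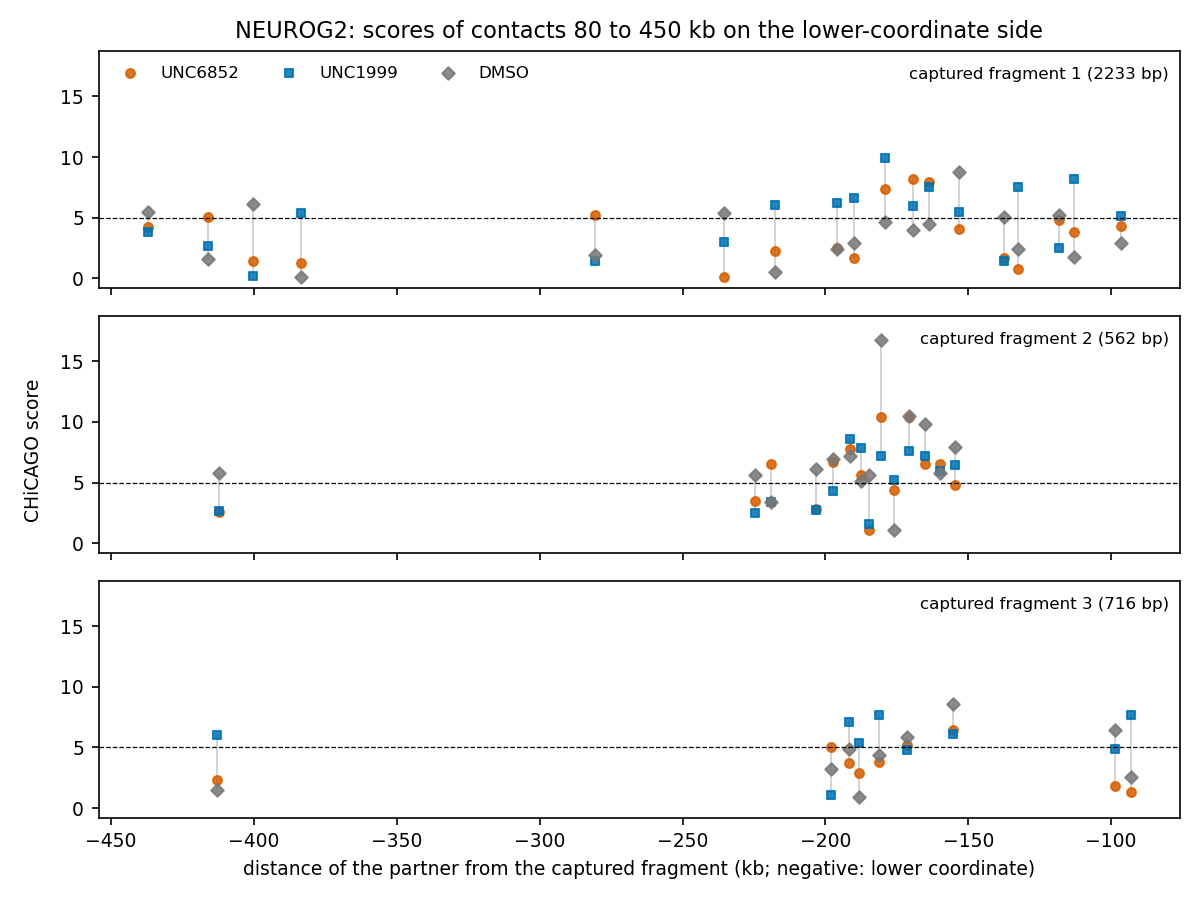
CHiCAGO score (vertical axis) of the pairs captured from the NEUROG2 side, within the plotted span, against its distance from the captured fragment (horizontal axis, kb, negative toward lower coordinates), with 1 panel per captured fragment and points for UNC6852, UNC1999 and DMSO. The dashed line is the score of 5. Points gather between 93.2 and 219 kb, and the highest is the DMSO score of 16.8 from the 562 bp fragment.

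Inside ALPK1 lies a captured fragment, chr4:112327683-112330786, that was read from both ends. Paired with the 562 bp fragment of NEUROG2 it scored 2.50 in UNC6852, 2.44 in UNC1999 and 7.07 in DMSO when read from its own side, and 1.11 in UNC6852, 1.55 in UNC1999 and 5.62 in DMSO when read from the NEUROG2 side. Both readings were called in DMSO only. With the uncaptured fragment that holds the NEUROG2 start (chr4:112514959-112519661, which spans the GATC printed above and so more than 1 DpnII fragment) it scored 8.48 in UNC6852, 5.03 in UNC1999 and 4.66 in DMSO, with DMSO lowest.

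Toward higher coordinates NEUROG2 met the body of ANK2, which codes for a membrane adaptor of heart and neurons. One pair at 717 kb scored 7.0 in UNC6852, 3.41 in UNC1999 and 0 in DMSO, and one at 699 kb, called in DMSO only, scored 0 in UNC6852, 0.50 in UNC1999 and 5.68 in DMSO. The third, at 422 kb, scored 1.33 in UNC6852, 6.71 in UNC1999 and 0.78 in DMSO, so each ANK2 pair was called in a different profile. At gene ends, an AP1AR fragment 281 kb away scored 5.26 in UNC6852, 1.46 in UNC1999 and 1.92 in DMSO. A fragment that reaches ends of both AP1AR and TIFA scored 0.10 in UNC6852, 3.02 in UNC1999 and 5.39 in DMSO, and one at a TIFA end scored 3.47 in UNC6852, 2.53 in UNC1999 and 5.59 in DMSO. The first was thus called in UNC6852 only and the other two in DMSO only.

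NEUROG1 (chr5:135534282-135535964) had 38 pairs from 7 captured fragments, with 20 contacts in UNC6852, 10 in UNC1999 and 19 in DMSO. The shares were 52.6% (exact 95% interval 35.8 to 69.0) in UNC6852, 26.3% (13.4 to 43.1) in UNC1999 and 50% (33.4 to 66.6) in DMSO. Again the intervals overlap, and all are of the same 38 pairs, so the overlap does not test a difference. Its mean asinh score was 1.85 in UNC6852, 1.62 in UNC1999 and 1.66 in DMSO. The fragment that holds its start, which begins at the first of the 2 GATC sites as printed and runs upstream, was not captured and had no cis pair. A pair of partners at lower coordinates, each met from 3 or more NEUROG1 fragments, held all 3 of the gene's contacts that were called in every profile. The nearer, chr5:135498643-135504029, was 33.0 to 33.6 kb away, and its strongest common contact scored 6.49 in UNC6852, 5.98 in UNC1999 and 7.10 in DMSO. The farther, chr5:135468268-135473467, was 63.4 to 65.8 kb away, with common contacts of 5.69 in UNC6852, 5.63 in UNC1999 and 6.44 in DMSO, and of 5.72 in UNC6852, 5.93 in UNC1999 and 5.23 in DMSO. Over the 7 pairs of both partners, 6 were called in UNC6852, 3 in UNC1999 and 6 in DMSO.

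**Figure D3:**
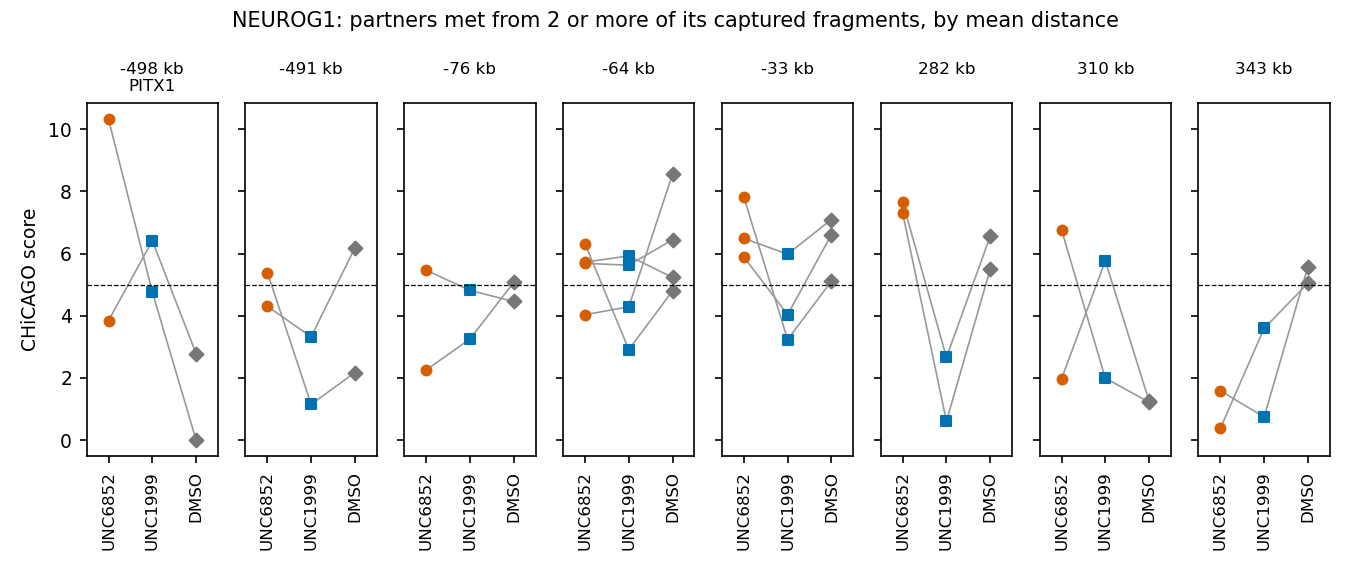
CHiCAGO score (vertical axis) in UNC6852, UNC1999 and DMSO (horizontal axis) for partner fragments met from more than 1 captured fragment of NEUROG1. Each line joins the scores of 1 captured fragment, each panel is 1 partner with its distance in kb (negative toward lower coordinates), and the dashed line is the score of 5. The pair at the PITX1 end is higher in both compounds than in DMSO from both fragments. The nearby partner at 490 to 492 kb is lower in UNC1999 than in DMSO from both.

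Farther out, NEUROG1 met an end of PITX1, a homeobox gene of hindlimb and pituitary, from 2 captured fragments. Beside the pair of 10.3 in UNC6852, 4.77 in UNC1999 and 0 in DMSO at 499 kb, a second fragment at 497 kb scored 3.84 in UNC6852, 6.41 in UNC1999 and 2.78 in DMSO. Both were higher in each compound than in DMSO, though each was called in 1 profile only, and none in DMSO. The nearby partner chr5:135041964-135047334, met from the same 2 fragments, did not follow. It scored 5.39 and 4.30 in UNC6852, 1.15 and 3.32 in UNC1999 and 2.17 and 6.19 in DMSO. UNC1999 was thus lower than DMSO from both fragments, and UNC6852 was higher from one and lower from the other. On the other side, the body of SLC25A48, a mitochondrial carrier gene, received 10 pairs, 4 called in UNC6852, 3 in UNC1999 and 5 in DMSO. Its partner at 282 kb was met from a pair of NEUROG1 fragments, which scored 7.66 and 7.29 in UNC6852, 2.66 and 0.60 in UNC1999 and 6.56 and 5.50 in DMSO. That partner was called from both fragments in UNC6852 and DMSO and fell short of 5 in UNC1999 both times. The partner at 343 kb was called in DMSO only, with 1.59 and 0.37 in UNC6852, 0.74 and 3.59 in UNC1999 and 5.58 and 5.04 in DMSO. A fragment at an end of CATSPER3, a sperm calcium channel gene, scored 0.37 in UNC6852, 2.96 in UNC1999 and 6.26 in DMSO. By captured fragment, the mean asinh difference of NEUROG1 from DMSO under UNC6852 ranged from -2.07 to 1.99. The lowest value rests on 2 pairs, both called in DMSO only, and the highest on 3 pairs, all called in UNC6852 only. The direction of both extremes was thus fixed by the way the table was made.

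Across all members, 24 partners were met from more than 1 fragment of the same gene. The 57 pairs on them included 9 called in all 3 profiles (15.8%, against 19% over all genes), and the 77 pairs on partners met once included 1 (1.30%, against 5.03%). Under UNC6852 all pairs of a partner were higher than in DMSO for 6 of the 24 partners and all lower for 2, while 16 were mixed. A single direction was thus found for 33.3% of the members' partners, against 47.9% of those of all genes. Under UNC1999 the counts were 5 higher, 6 lower and 13 mixed, or 45.8% with a single direction, against 46.4%.

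NEUROG3 (chr10:69571485-69573422) had 4 pairs on 2 partners and 2 contacts in each profile. The partner in the body of TSPAN15 (chr10:69516592-69521879), a tetraspanin gene, scored 6.06 in UNC6852, 3.52 in UNC1999 and 5.00 in DMSO from one fragment and 3.10 in UNC6852, 5.64 in UNC1999 and 2.10 in DMSO from another. The partner at an end of FAM241B (chr10:69631598-69636827) scored 7.43 in UNC6852, 2.64 in UNC1999 and 5.47 in DMSO from one and 1.80 in UNC6852, 5.05 in UNC1999 and 4.56 in DMSO from another. Both partners were called in every profile, each time from a different fragment in UNC1999 than in UNC6852 and DMSO. The fragment with the NEUROG3 start was captured but had no cis pair.

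NEUROD1 (chr2:181668295-181680517) had 4 pairs, called 4 times in UNC6852, 1 time in UNC1999 and never in DMSO. Its contact with a captured fragment 20.7 kb away (chr2:181658277-181658550) scored 6.68 in UNC6852, 12.1 in UNC1999 and 4.10 in DMSO. It is the single NEUROD1 pair above 1 in all profiles. The other pairs were at or near 0 outside UNC6852, where they scored 5.54 (1.14 Mb), 5.89 (577 kb) and 8.24 (96.7 Mb, in the body of KCMF1). With gene ends widened to 5000 bp NEUROD1 had 21 pairs, called 11 times in UNC6852, 10 times in UNC1999 and 2 times in DMSO.

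NEUROD2 (chr17:39603768-39607920) had 14 pairs, 1 called in UNC6852, 7 in UNC1999 and 6 in DMSO, and no pair was called in more than 1 profile. Of these, 7 pairs reached beyond 2 Mb (10.7 to 36.3 Mb), and these gave 0 contacts in UNC6852, 4 in UNC1999 and 3 in DMSO. The 7 nearer ones gave 1 in UNC6852, 3 in UNC1999 and 3 in DMSO. The highest single score was in the body of GRB2, a signalling adaptor, with 0 in UNC6852, 10.1 in UNC1999 and 0 in DMSO over 35.8 Mb. A contact in PECAM1, an endothelial adhesion gene, scored 0 in UNC6852, 0 in UNC1999 and 8.72 in DMSO. The single UNC6852 contact lay in RAPGEFL1 and scored 6.23 in UNC6852, 0 in UNC1999 and 0 in DMSO. Some nearer partners had values above 0 in every profile. The fragment at an end of STAC2 scored 4.24 in UNC6852, 1.88 in UNC1999 and 5.56 in DMSO, and one at 360 kb scored 2.92 in UNC6852, 0.10 in UNC1999 and 7.19 in DMSO.

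OLIG2 (chr21:33025935-33029185), a factor of motor neurons and oligodendrocytes, had 10 pairs, 6 called in UNC6852, 1 in UNC1999 and 5 in DMSO. All lay 76 to 357 kb away and none at an end of another gene. The contact at 91.0 kb scored 7.14 in UNC6852, 3.66 in UNC1999 and 5.25 in DMSO. The one at 357 kb scored 2.39 in UNC6852, 6.15 in UNC1999 and 5.36 in DMSO, and it was the single OLIG2 contact called in UNC1999. A partner starting at chr21:33111056 moved in opposite ways under UNC6852 from a pair of OLIG2 fragments. It scored 1.29 in UNC6852, 2.33 in UNC1999 and 6.14 in DMSO from one, and 5.18 in UNC6852, 1.27 in UNC1999 and 1.84 in DMSO from the other. Within 5000 bp of its ends OLIG1, which acts in oligodendrocyte maturation, had 1 pair, with scores of 5.76 in UNC6852, 0 in UNC1999 and 0 in DMSO. OLIG3, a factor of dorsal interneurons, had 9 such pairs, 2 called in UNC6852, 3 in UNC1999 and 4 in DMSO.

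ATOH1 (chr4:93828753-93830964) had 14 pairs, 4 called in UNC6852, 4 in UNC1999 and 6 in DMSO, and none was called in more than 1 profile. All but 2 lay 218 to 383 kb away toward higher coordinates. The partner starting at chr4:94114414 scored 2.58 in UNC6852, 6.24 in UNC1999 and 3.70 in DMSO from one ATOH1 fragment and 5.65 in UNC6852, 1.96 in UNC1999 and 2.06 in DMSO from another. A contact at an end of SMARCAD1, a chromatin remodeller, scored 5.02 in UNC6852, 3.03 in UNC1999 and 0.97 in DMSO. One at an end of HPGDS, a prostaglandin synthase, scored 5.08 in UNC6852, 2.83 in UNC1999 and 0.40 in DMSO. Both gene-end contacts were called in UNC6852 only. The largest fall was at 218 kb, with 0.28 in UNC6852, 0 in UNC1999 and 5.56 in DMSO.

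**Figure D4:**
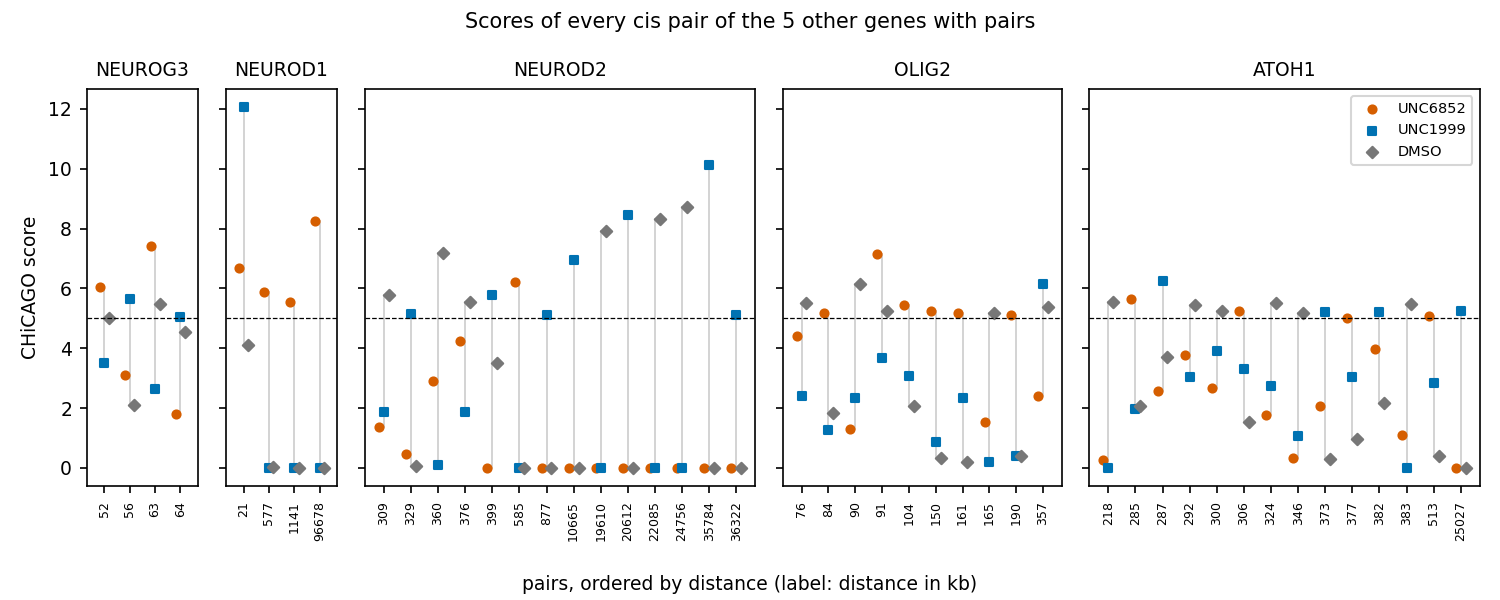
CHiCAGO score (vertical axis) of every cis pair of NEUROG3, NEUROD1, NEUROD2, OLIG2 and ATOH1 in UNC6852, UNC1999 and DMSO. The dashed line is the score of 5. Pairs of NEUROD2 and NEUROD1 often stand at 0 in a profile, while those of NEUROG3 do not.

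To compare genes, the asinh scores of a gene's pairs were averaged and DMSO was subtracted, for all 4979 protein-coding genes with at least 3 cis pairs. Under UNC6852 1 member, NEUROD1 (2.03), reached a difference of 0.5 or more, where 18.3% of all genes did. Likewise 1 member, NEUROD2 (-0.71), reached -0.5 or less, where 13.6% did. Of all genes, 99.8% had a lower difference than NEUROD1 and 8.19% a lower one than NEUROD2. Under UNC1999 0 of 7 members passed in either direction, where 15.7% of genes were higher and 16.3% lower by that much. The NEUROD1 value rests on 4 pairs, and 3 of them are in the table through UNC6852 alone. For those 3 a higher value in UNC6852 than in DMSO was fixed by the way the table was made. The rank of NEUROD1 is therefore no support for a rise. Within 5000 bp of its ends, over 21 pairs, NEUROD1 was at 0.81 under UNC6852 and also at 0.81 under UNC1999, past 0.5 in both. Only 2 of these 21 pairs were called in DMSO. Any other pair is higher than DMSO, by the way the table was made, in the compound that called it. The wider window is therefore no support for a rise either. Of the 14 NEUROD2 pairs, 6 are in the table through DMSO alone, so a lower value in UNC6852 was fixed for them. For 1 pair, called in UNC6852 alone, a higher value was fixed. The value of NEUROD2 is likewise no support for a fall. The NEUROD2 call ended at -0.22 for pairs of up to 2 Mb and at -0.13 as a median over pairs. Its sign turned under 2 other settings (0.29 and 0.75), through the same 3 pairs in both. The 11 pairs with NEUROD2 at the bait gave -1.11. The remaining differences under UNC6852 were 0.47 for OLIG2, 0.19 for NEUROG1, -0.06 for ATOH1, -0.07 for NEUROG2 and -0.0055 for NEUROG3. Under UNC1999 they ran from -0.22 for OLIG2 to 0.26 for NEUROD1. The medians of the 7 members were -0.0055 for UNC6852 and 0.071 for UNC1999, beside 0.069 and -0.0076 over all genes. Both comparisons use the same DMSO profile.

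**Figure D5:**
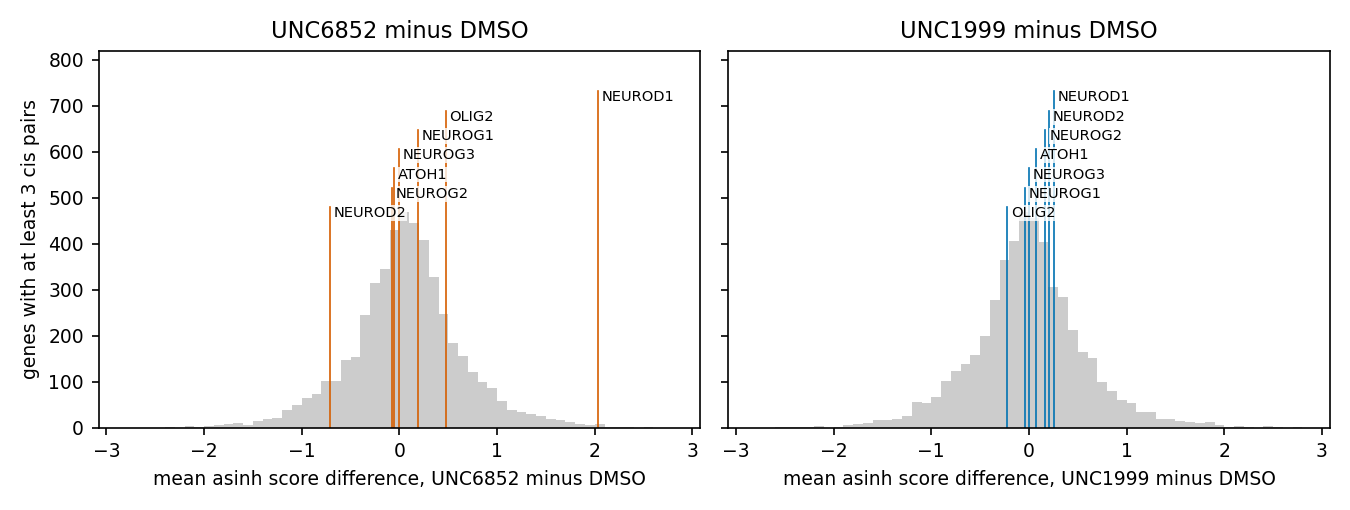
Histograms of the mean asinh score difference (horizontal axis) over the 4979 genes with at least 3 cis pairs (vertical axis, number of genes), for UNC6852 minus DMSO and UNC1999 minus DMSO. Labelled lines mark the 7 members, and their heights carry no value. NEUROD1 stands at 2.03 under UNC6852, and under UNC1999 all 7 lie between -0.22 and 0.26.

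The genes around the bHLH network were read in the same way. Of 29 such genes (other neural bHLH genes, their dimer partners and inhibitors, and Notch ligands and receptors) 18 had a cis pair and 11 had 3 or more. Their 144 pairs gave 53 contacts in UNC6852 (36.8%), 59 in UNC1999 (41.0%) and 53 in DMSO (36.8%), where the shares over all cis pairs were 46.1% in UNC6852, 42.3% in UNC1999 and 42.4% in DMSO. Under UNC6852 2 of the 11 were higher by 0.5 or more, the Notch effector HEY2 (1.10) and the Notch ligand DLL4 (0.78), and 1 was lower, the dimer inhibitor ID3 (-0.73), where 18.3% of all genes were higher and 13.6% lower. Under UNC1999 3 were higher, the receptor NOTCH3 (1.12) and the ligands JAG1 (0.88) and DLL3 (0.54), and 1 was lower, the pancreas and cerebellum factor PTF1A (-0.57), where 15.7% of all genes were higher and 16.3% lower. These values rest on 3 pairs for HEY2, 4 for ID3, 6 each for NOTCH3 and JAG1 and 7 for DLL4. PTF1A had 16 pairs and DLL3 27. Here too, pairs called in a compound but not in DMSO, or in DMSO only, had a direction set by how the table was made. The medians over the 11 genes were 0.21 for UNC6852 and 0.093 for UNC1999.

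Among genes of other chromosomes with at least 5 cis pairs, the 3 mean asinh scores nearest to those of a member were found by Euclidean distance over the 3 profiles. They belonged to CTDSP1 for NEUROG1 (distance 0.019), ITGA9 for NEUROG2 (0.031), SYTL3 for OLIG2 (0.036), DACT3 for ATOH1 (0.059) and PUS3 for NEUROD2 (0.094), out of 3042 to 3239 candidates.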

How the data were processed

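Poised-enhancer capture Hi-C contacts were measured in 45 libraries, 15 per group, and the values used are CHiCAGO scores that the authors deposited as 1 pooled column per group, per the labels. Scores were never negative, and every pair reached 5 in at least 1 column. The build is GRCh38, per the submitters' processing notes, and the aligner, caller version and settings are not given in the sources used here. Read numbers behind the scores are unknown, so no depth or detection limit is given.

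Gene ends came from RefSeq GRCh38.p14. A pair belonged to a gene when the captured or the other fragment lay within 1000 bp of either end. The table of gene ends gives neither strand nor exons, so positions are stated for the gene body only. Of the GATC sites in RefSeq promoter windows, 0 of 733 within captured fragments lay away from the fragment start, against 7982 of 8780 (90.9%) within uncaptured ones, so uncaptured fragments are mostly several DpnII fragments long. Calls used a score of 5, differences used asinh(score), and gene means required at least 3 pairs. Pairs to name were, per gene, the 3 with the highest mean score, those called in all 3 profiles where a gene had at most 5, the largest rise and fall per compound, and those at ends of other genes. Some pairs and genes that the rule names are not reported here. Other pairs are named as partners of these or as neighbours in the same locus, chosen after their values were seen. Members, lists and the rule were chosen with earlier results of these data known. The averaging of differences per gene was tested on simulated scores with planted shifts. Those scores were not filtered for reaching 5 in a profile, so the simulation does not cover the limit set by that filter. Intervals are exact (Clopper-Pearson) at 95%. Alternatives were other thresholds, gene-end windows, distances, sides, scalings and averages. Python 3.11.15, numpy 2.4.6, pandas 2.3.3, scipy 1.17.1 and matplotlib 3.10.9 were used.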

Additional observations from a re-analysis of the deposited data

Results flagged for a closer look

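Pairs between chromosomes were not part of the comparisons above. The members had 318 of them, of which 112 were called in UNC6852, 115 in UNC1999 and 92 in DMSO, so both compounds lay above the control count. The ratios to DMSO were 1.22 for UNC6852 and 1.25 for UNC1999, beside 1.15 and 1.21 over all 281836 such pairs. Of the 318, 1 was called in more than 1 profile (0.314%, against 0.334% over all such pairs). OLIG1 had 6 of these pairs (3 called in UNC6852, 1 in UNC1999 and 2 in DMSO) and OLIG3 had 8 (4 in UNC6852, 2 in UNC1999 and 2 in DMSO).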

How the results depend on the processing

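No paired analysis was possible because each group is 1 pooled column, and for the same reason no replicate could be left out. Of the alternative values for pair numbers, calls and shared calls, 51 moved little and 28 moved more. The 51 include the values for pairs of at least 20 kb, which could not move because no member pair was shorter. At a score of 7 the calls were 14 in UNC6852, 16 in UNC1999 and 15 in DMSO, and 20% of the 15 DMSO calls were shared with UNC6852 and 26.7% with UNC1999, which turns the order of those shares. At 10 they were 3 in UNC6852, 2 in UNC1999 and 2 in DMSO, with 100% and 0% of the 2 DMSO calls shared with UNC6852 and UNC1999. Fragments touching the gene ends gave 38 pairs (15 called in UNC6852, 18 in UNC1999 and 18 in DMSO), and those within 5000 bp gave 256 (104 in UNC6852, 114 in UNC1999 and 111 in DMSO). Pairs listed with the gene as the other end numbered 9 (3 called in UNC6852, 3 in UNC1999 and 4 in DMSO), with 0% of the 4 DMSO calls shared with either compound. Left-out genes were chosen after seeing the data. Without NEUROG2 the calls were 37 in UNC6852, 25 in UNC1999 and 38 in DMSO, and 10.5% of the 38 DMSO calls were shared with UNC1999. Without NEUROG1 UNC6852 had 36 calls. The NEUROD2 difference under UNC6852 (-0.71) turned to 0.75 over the 3 pairs listed with it as the other end. It was 0.29 as a mean over baits, which gives each of those 3 pairs the weight of the gene's 1 captured fragment. The 2 sign changes thus rest on the same pairs. The difference was -0.27 within 0 bp (1 pair), -0.47 within 5000 bp, -0.22 for pairs of up to 2 Mb and -0.13 as a median. With NEUROD2 at the bait only it was -1.11 over 11 pairs, and with quantile-normalized scores -0.76. The NEUROD1 difference under UNC6852 (2.03) kept its sign over 12 settings, from 0.48 to 2.43, and was 0.81 within 5000 bp. Several of these settings hold the same 4 pairs. Few pairs were called in DMSO in the wider ones (0 of 10 over the gene body, 2 of 21 within 5000 bp). Pairs called in a compound but not in DMSO are higher there by the way the table was made. Neither the kept sign nor the UNC1999 values of NEUROD1 therefore support a rise. Under UNC1999 NEUROD1 passed 0.5 within 5000 bp (0.81), over the gene body (0.79) and for its 1 pair with a mean score of at least 5 (1.07). Under UNC1999, NEUROG3 (-0.52) and OLIG2 (-0.57) passed -0.5 within 0 bp and over the gene body, on 2 pairs each, and NEUROG3 (-0.70) and NEUROG1 (-0.89) on 1 pair each. NEUROD2 did so within 0 bp (-1.03, 1 pair). OLIG2 reached 0.61 under UNC6852 as a median. The NEUROG1 difference under UNC6852 changed sign in 3 of 14 settings (-0.40 to 0.33). Causes of these shifts were not tested, beyond the smaller or larger number of pairs each setting holds. With 1 column per group and unknown read numbers, no replicate error can be set beside any difference.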
